A study of Mus musculus with 33 samples.

Results

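The nuclear genes of the respiratory chain were followed through the differentiation of P19 cells, a mouse embryonal carcinoma line from ATCC that resembles early embryonic cells. Members were taken by gene symbol: every symbol starting Nduf other than the assembly factors Ndufaf, every symbol starting Uqcr, Cox4 to Cox8 or Atp5, and Sdha, Sdhb, Sdhc, Sdhd, Cycs and Cyc1, with mitochondrial genes and pseudogenes left out. The rule found 85 of the 14717 genes of the table, of which 40 were grouped by name with complex I, 4 with complex II, 10 with complex III and its partner cytochrome c, 15 with complex IV and 16 with complex V. A further 6 symbols that meet the rule (Atp5l, Cox6a2, Cox7b2, Cox8b, Cox8c and Ndufb4c) were not analysed here. No filter on low values was applied, so every count below is over all 85 members.

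The respiratory chain sits in the inner mitochondrial membrane. Complex I (NADH dehydrogenase) and complex II (succinate dehydrogenase) pass electrons to ubiquinone, complex III passes them to the soluble carrier cytochrome c, and complex IV (cytochrome c oxidase) passes them to oxygen; complexes I, III and IV pump protons, and complex V, the ATP synthase, uses the gradient. Most subunits are encoded in the nucleus and the others in mitochondrial DNA, and several nuclear subunits of complexes IV and V exist as alternative isoforms with different tissue ranges. Undifferentiated pluripotent cells are known for a high rate of glycolysis, and neurons and heart muscle for their reliance on oxidative phosphorylation.

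RNA was measured in 15 libraries of total RNA depleted of ribosomal RNA, 3 in each of 5 groups. D0 is undifferentiated P19 cells in maintenance medium. D3RA and D6RA are cells at days 3 and 6 of differentiation with 1 µM all-trans retinoic acid (RA), which drives this line towards neurons. For D3DMSO and D6DMSO the agent was 1% dimethyl sulfoxide (DMSO), which drives it towards mesoderm and heart muscle. All treated cells were first grown as embryoid bodies in bacteriological dishes for 2 days and then moved to culture flasks with maintenance medium. All groups carry the same unmodified genotype of 1 cell line, and no group was untreated at day 3 or day 6, so the agents were compared with each other and with day 0. The 3 samples of a group are described as biological replicates without a statement that they were separate cultures, and the p-values below therefore rest on a spread between samples that may be technical.

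Levels are counts recovered from the deposited log2 values, as CPM (counts scaled to library size on the deposited scale), and depend on gene length as well as abundance, so they were compared between groups and not between genes. Total counts were 3.55 to 9.88 M in the D0 and day 3 libraries and 38.24 to 49.64 M at day 6. Mitochondrial genes made up 41.6% to 55.8% of the counts at day 6 and 0% at day 0 and day 3, and the mitochondrially encoded subunits were not analysed here. In 5 libraries (D0 replicate 2, D3DMSO replicates 2 and 3, D3RA replicates 2 and 3) over 20% of the non-mitochondrial counts came from 4 genes, Lars2, Gm15564 and 2 without a symbol, against 0.528% to 9.15% in the other 10. The pluripotent marker list (5 of 8 genes measured) was highest in D0, at 1890 to 2190 CPM summed, and 0.188 to 0.492 CPM in D6RA. With DMSO it was still 555 to 1130 CPM at day 3 and 75 to 92.1 CPM at day 6. The neuron list was highest in D6RA, at 3550 to 3800 CPM. It was 372 to 410 CPM in D0, above the 169 to 229 CPM of D3DMSO. The nascent mesoderm list (4 of 5 measured) was highest in D3DMSO, at 1150 to 1250 CPM. The cardiac and striated muscle list (10 of 15 measured) was highest in D6DMSO, at 245 to 369 CPM. Endothelial markers reached 142 to 198 CPM in D3RA and 142 to 167 CPM in D6DMSO and at most 63.8 CPM in any other group. Fibroblast and smooth muscle markers reached 470 to 560 CPM in D6DMSO, above its cardiac sum, and at most 137 CPM in any other group. What these cell types contribute to the results below was not tested. In these bulk samples fewer cells of a type and less RNA per cell cannot be told apart.

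The summed level of complexes I and IV was highest at day 3 with RA and that of complexes II and V at day 0, and all 5 complexes were lowest at day 6. The group with the highest mean was D3RA for 45 of the 85 members, D0 for 26, D3DMSO for 10 and D6DMSO for 4, and the lowest mean lay in D6DMSO for 43 and in D6RA for 30. D3RA held the highest mean of 22 of 40 members of complex I and 11 of 15 of complex IV, whereas D0 held that of 3 of the 4 members of complex II. Summed over the 85 members, a library held 10229 to 11063 CPM in D0, 9341 to 10784 CPM in D3DMSO, 10601 to 11330 CPM in D3RA, 6344 to 7032 CPM in D6DMSO and 6567 to 6682 CPM in D6RA. All 6 libraries of day 6 lay below all 9 others in this sum, while the ranges of D0, D3DMSO and D3RA overlapped.

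The sum hid opposite movements of the complexes. Complex IV went from 1294 to 1391 CPM per library in D0 to 1889 to 2067 CPM in D3RA, while complex V, whose sum is mostly Atp5a1 and Atp5b, went from 4445 to 4810 CPM in D0 to 3530 to 3883 CPM in D3RA. The libraries of D0 and D3RA did not overlap in either sum, and no test was run on the sums. The heat map of all members by library shows this as red cells in complexes I and IV in D3RA and blue cells in most rows at day 6.

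**Figure D1:**
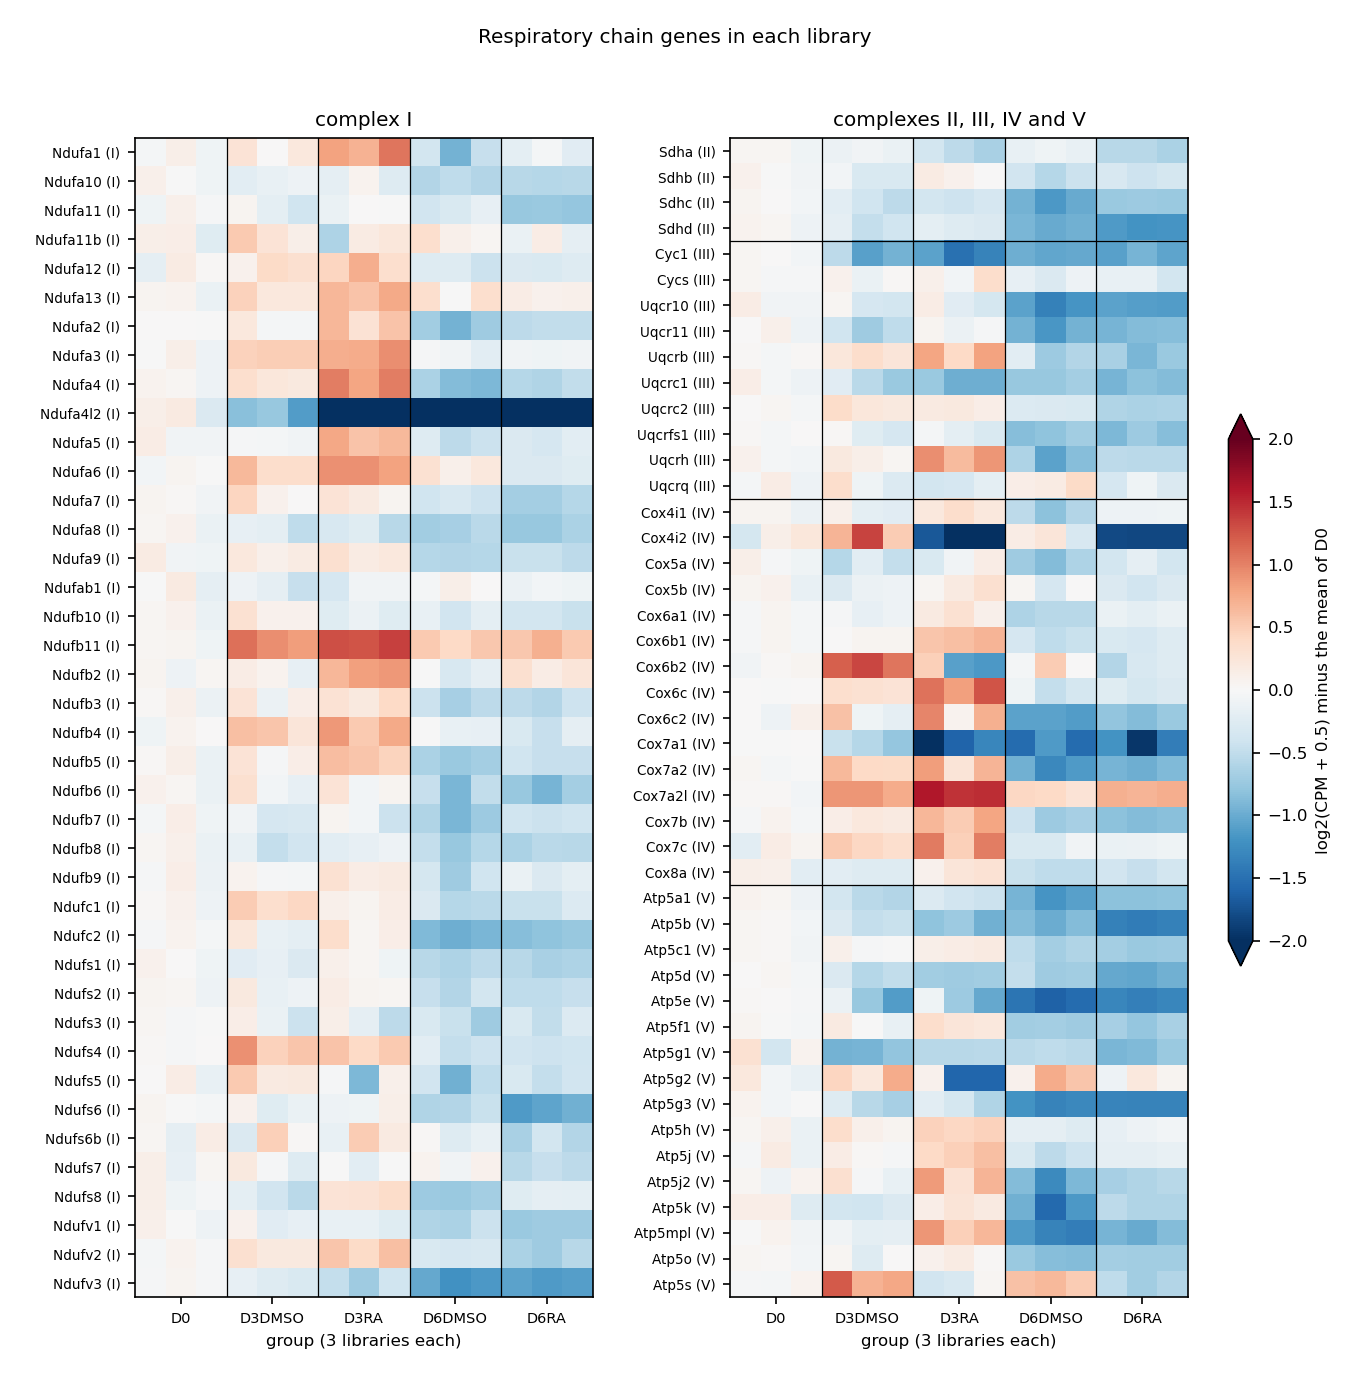
Each row is 1 of the 85 genes with its complex in brackets and each column 1 of 15 libraries; colour is log2(CPM + 0.5) minus the mean of the 3 D0 libraries, cut at 2 in either direction. Most rows are blue at day 6, Ndufb11 and Cox7a2l are the reddest rows in D3RA, and Ndufa4l2, Cox4i2 and Cox7a1 are dark blue there.

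Promoter stretches of 6 genes are shown because their genes carry the main contrasts of what follows: Uqcrh, Cox6a1, Cox6b1 and Cox7a2l were higher with RA at day 3, and Sdha and Atp5b were lower with RA on both days. Each is the 120 bases before the start of the RefSeq gene on build GRCm38.p6, 5′ to 3′ in the direction of transcription, and capitals mark matches to the motifs of NRF1 (GCGCA, any base, then GCGC, on either strand) or of ETS factors such as GABPA (CCGGAAG or CTTCCGG), regulators known to drive many respiratory chain genes.
Sdha, chr13:74350241-74350360, minus strand: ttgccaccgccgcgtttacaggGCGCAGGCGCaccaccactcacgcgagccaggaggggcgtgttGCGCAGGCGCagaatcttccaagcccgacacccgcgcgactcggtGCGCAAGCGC
Uqcrh, chr4:116075071-116075190, minus strand: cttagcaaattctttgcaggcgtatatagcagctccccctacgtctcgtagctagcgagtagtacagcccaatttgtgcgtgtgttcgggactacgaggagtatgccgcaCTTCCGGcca
Cox6a1, chr5:115348959-115349078, minus strand: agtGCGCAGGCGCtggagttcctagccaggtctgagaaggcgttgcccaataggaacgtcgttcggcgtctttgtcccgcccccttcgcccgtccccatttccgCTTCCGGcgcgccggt
Cox6b1, chr7:30626115-30626234, minus strand: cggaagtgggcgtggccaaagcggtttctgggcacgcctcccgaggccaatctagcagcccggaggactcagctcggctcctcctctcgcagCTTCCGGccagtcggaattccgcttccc
Cox7a2l, chr17:83514334-83514453, minus strand: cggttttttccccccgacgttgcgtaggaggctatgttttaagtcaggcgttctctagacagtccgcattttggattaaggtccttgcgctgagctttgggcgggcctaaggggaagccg
Atp5b, chr10:128083187-128083306, plus strand: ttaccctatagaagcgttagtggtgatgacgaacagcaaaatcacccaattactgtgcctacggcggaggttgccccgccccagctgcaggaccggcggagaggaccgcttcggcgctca

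The Sdha stretch held 3 matches to the NRF1 motif, that of Cox6a1 held 1 NRF1 and 1 ETS match, those of Uqcrh and Cox6b1 held 1 ETS match each, and those of Cox7a2l and Atp5b held none of the motifs searched. Of the 85 members, 65 had a promoter window of 250 bases before to 50 bases after a start, 70 windows in all. The NRF1 motif was in 18 of the 70 windows (25.7%), against 9.48% of the 13335 windows of genes in the table and 4.6% of all 32851 windows. The ETS motif was in 21.4% of member windows against 16.4% of those of genes in the table, the YY1 motif (ATGGCGGC or GCCGCCAT) in 10.0% against 4.55%, and the E-box (CACGTG) in 7.14% against 9.66%. Both strands were searched, and no matches overlapped in the stretches shown. Of the 17 members with the NRF1 motif 6 were higher and 6 lower in D3RA than in D0. Of those without it 22 were higher, 6 lower and 20 not called. Among all genes 35.0% were higher and 33.9% lower in this comparison, near the shares of the members with the motif. Whether the motif goes with direction was not tested. A match describes the letters and shows neither binding nor a cause.

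From D0 to day 3 with DMSO the respiratory chain genes moved in both directions: 9 of 40 members of complex I were higher and 6 lower, 0 and 3 of 4 in complex II, 1 and 3 of 10 in complex III, 6 and 2 of 15 in complex IV, and 1 and 7 of 16 in complex V. The test was limma on the log2 values of all 14717 genes, and a gene was called at a Benjamini-Hochberg adjusted p under 0.05. In D3DMSO 17 members rose and 21 fell, 44.7% of the 85, beside 56.1% of all genes called in this comparison; among all genes 28.2% rose and 27.8% fell. The median member difference was -0.00 on the log2 scale and that of all genes 0.02. Of the 21 that fell, 12, with all 3 of complex II among them (adjusted p = 0.63 for Sdhb), lost the call when the 5 libraries rich in 4 genes were left out, which leaves D3DMSO with 1 library assumed to vary like the other groups.

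Ndufb11, a subunit of the membrane arm of complex I, showed the largest rise in that complex. It stood at 48.4, 49.1 and 44.3 CPM in the D0 libraries, 102, 90.3 and 84.9 CPM in D3DMSO, and 116, 113 and 123 CPM in D3RA. The 3 groups did not overlap, and the difference from D0 was 0.96 (SE 0.08, adjusted p = 4.7e-08) on the log2 scale with DMSO and 1.31 (SE 0.08, adjusted p = 3.8e-10) with RA. Both calls held in every alternative run.

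Cox7a2l, which codes for a factor that joins complexes III and IV into supercomplexes rather than for a core subunit, rose on both routes. It measured 84.9, 84.4 and 80.2 CPM in D0, 153, 153 and 140 CPM in D3DMSO and 254, 227 and 232 CPM in D3RA. At day 6 it was back to 111, 110 and 101 CPM with DMSO and 137, 134 and 138 CPM with RA. All libraries of each treated group lay above those of D0 and those of each RA group above those of the DMSO group of the same day. The difference from D0 at day 3 was 0.84 (SE 0.06, adjusted p = 1.7e-08) with DMSO and 1.51 (SE 0.06, adjusted p = 4.3e-12) with RA, and no alternative run ended either call.

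Of the 6 members of complex IV that rose with DMSO, others were Cox6c (log2 difference 0.31, adjusted p = 0.015) and Cox7a2 (0.48, adjusted p = 0.0026), both structural subunits around the catalytic core, and the testis isoform Cox6b2 (1.33, adjusted p = 0.0054). Cox4i2 (1.01, adjusted p = 0.0345) and Cox7c (0.44, adjusted p = 0.0197) were also called higher and lost the call under several alternatives; Cox4i2 was at an adjusted p of 0.141 without the 5 libraries rich in 4 genes. In complex V the only member that rose with DMSO was Atp5s, which codes for coupling factor B, a protein that associates with the ATP synthase. Its libraries read 6.56, 6.45 and 7.0 CPM in D0 and 16.2, 11.1 and 11.8 CPM in D3DMSO without overlap, a difference of 0.94 (SE 0.17, adjusted p = 0.00016).

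Cyc1, the cytochrome c1 that hands electrons from complex III to cytochrome c, had the largest called fall of complex III on both routes. Both routes were compared with the same D0 libraries, so their differences from D0 are not independent of each other. Its level was 158, 155 and 149 CPM in D0, 107, 72.5 and 80.1 CPM in D3DMSO and 72.8, 54.4 and 60.7 CPM in D3RA. The D0 libraries lay above both day 3 groups, which overlapped each other at 72.5 to 72.8 CPM. The fall from D0 was -0.85 (SE 0.12, adjusted p = 1.4e-05) with DMSO and -1.30 (SE 0.12, adjusted p = 4.9e-08) with RA, kept in every alternative run.

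In complex V the catalytic beta subunit Atp5b and the delta subunit Atp5d of the central stalk fell on both routes. Atp5b held 1900, 1880 and 1780 CPM in D0, 1520, 1330 and 1360 CPM in D3DMSO and 1060, 1120 and 951 CPM in D3RA, 3 groups without overlap. Its difference from D0 was -0.40 (adjusted p = 0.00042) with DMSO and -0.83 (adjusted p = 8.75e-08) with RA. Atp5d differed by -0.45 (adjusted p = 0.00011) and -0.71 (adjusted p = 4.8e-07) in the same comparisons. The alpha subunit Atp5a1 fell on both routes, with -0.50 (adjusted p = 5.9e-05) for DMSO and -0.37 (adjusted p = 0.00071) for RA.

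The ring of subunit c is made from 3 genes, Atp5g1, Atp5g2 and Atp5g3, that code for the same mature protein. Atp5g1 fell from 15.1, 9.28 and 12.8 CPM in D0 to 6.08, 6.16 and 6.82 CPM in D3DMSO and 8.11, 8.14 and 8.22 CPM in D3RA, which was -0.92 (adjusted p = 0.00011) and -0.55 (adjusted p = 0.0051). Atp5g3 fell by 0.49 (adjusted p = 0.0005) and 0.39 (adjusted p = 0.0024) on the log2 scale. Atp5g2 was near 1 CPM in D0 and had 1.09 CPM in D3RA replicate 1 and 0 counts in replicates 2 and 3, where 3 counts would be 0.977 and 1.37 CPM. Its called difference of -1.60 from D0 rested on those 2 libraries and was 0.09 (adjusted p = 0.871) without the 5 libraries rich in 4 genes. Reads shared between these genes and their copies could be split by the counting, so their values are uncertain.

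With RA 37 members rose from D0 to day 3 and 18 fell. The called share of 64.7% stood beside 68.9% of all genes. The split leaned towards rises, with 43.5% of members higher and 21.2% lower against 35.0% and 33.9% of all genes, and the median member difference was 0.15 against 0.01 for all genes. By complex, 18 of 40 members of complex I rose and 3 fell, 10 of 15 of complex IV rose and 2 fell, 3 of 10 of complex III moved each way, 6 of 16 of complex V rose and 7 fell, and 3 of the 4 members of complex II fell with none higher. Of the 37 rises 29 held in every alternative run, and of the 18 falls 13 did.

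**Figure D2:**
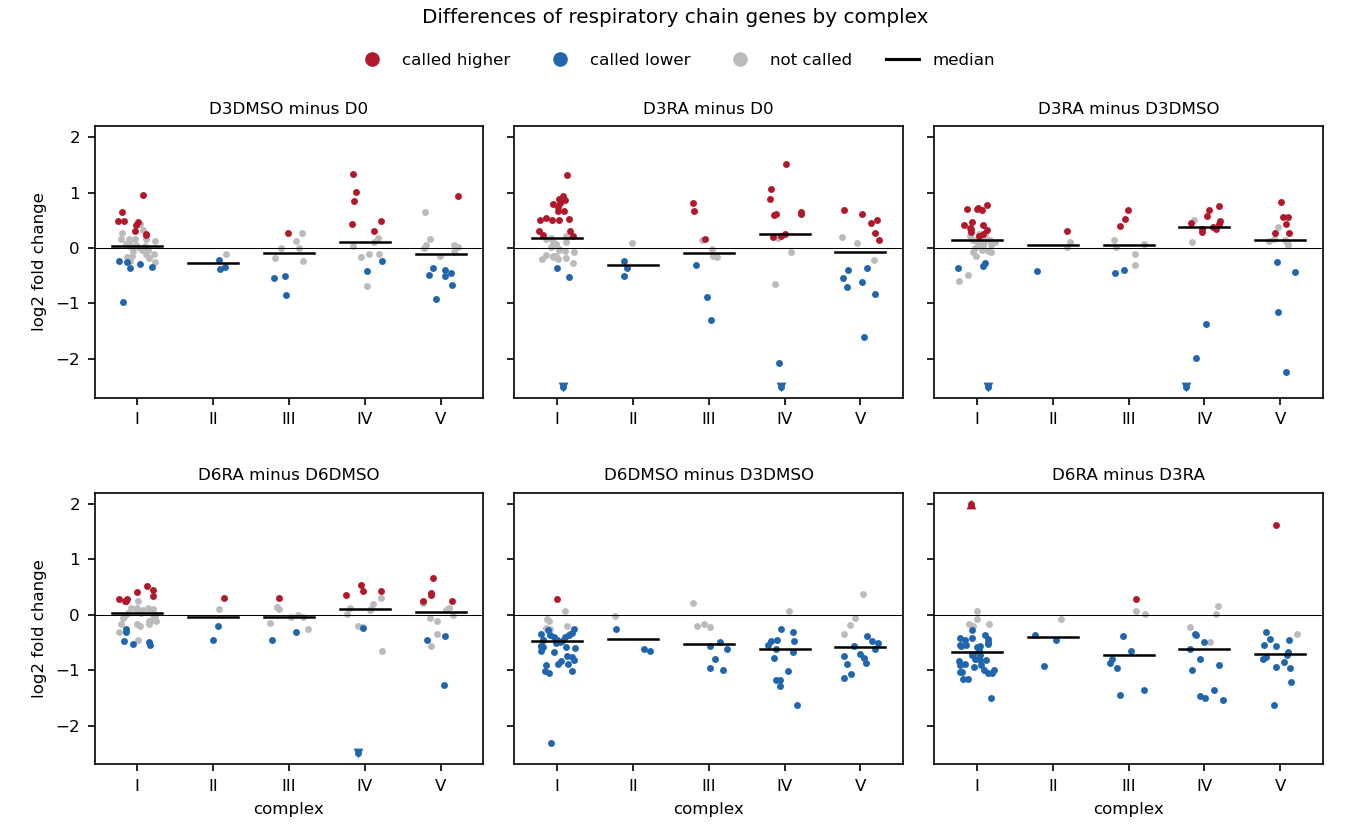
Each point is a member's log2 fold change in 1 of 6 comparisons, split by complex on the horizontal axis; red and blue mark adjusted p under 0.05, black bars are medians, and triangles at the edges mark values beyond -2.5 or 2. Complex IV has the highest median in D3RA minus D3DMSO (0.37), and nearly all points lie below 0 in both day 6 minus day 3 panels.

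Members of complexes III, IV and V that rose with RA included Cox6c, Uqcrh and Atp5mpl. Cox6c, which showed 104, 103 and 105 CPM in D0 and 132, 129 and 126 CPM in D3DMSO, reached 222, 185 and 249 CPM in D3RA. The difference between D3RA and D0 was 1.06 (SE 0.10, adjusted p = 7e-08) and that between D3RA and D3DMSO 0.75 (SE 0.10, adjusted p = 5.6e-06), without overlap of libraries in either. In complex III the hinge protein gene Uqcrh rose by 0.81 over D0 (adjusted p = 1.3e-06), and in complex V Atp5mpl, a small membrane subunit, rose by 0.68 (adjusted p = 7.8e-06). Uqcrh has pseudogenes in the table, so reads could have been divided between copies.

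Some core proteins of complexes II and III fell with RA, among them Sdha, Uqcrc1 and Cyc1. Others did not: the core protein Uqcrc2 of complex III was called higher (0.17, adjusted p = 0.016, lost under 3 alternatives), and the iron-sulfur subunit Sdhb did not pass the test (0.09, adjusted p = 0.345). Sdha, the flavoprotein that oxidises succinate, was 222, 222 and 202 CPM in D0 and 199, 205 and 197 CPM in D3DMSO, with overlap and a difference of -0.10 (adjusted p = 0.23). In D3RA it was 167, 150 and 137 CPM, below every other library of D0 and D3DMSO, and the fall from D0 was -0.51 (SE 0.07, adjusted p = 6.2e-06). Sdhc, a membrane anchor of the same complex, fell by 0.38 with DMSO (adjusted p = 0.00063) and by 0.37 with RA (adjusted p = 0.0005); the DMSO call was lost without the 5 libraries rich in 4 genes (adjusted p = 0.0891). Sdhd fell by 0.34 and 0.24, and both of its calls were lost without those libraries (adjusted p = 0.149 and 0.0822). Uqcrc1, a core protein of complex III, was 240, 212 and 203 CPM in D0 and 130, 111 and 111 CPM in D3RA, a difference of -0.89 (SE 0.11, adjusted p = 1.3e-06).

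A direct comparison of the treatments at day 3 asked how the neural and mesodermal routes differ when they part. In D3RA 34 members were higher than in D3DMSO and 14 lower, 56.5% of the 85 against 62.1% of all genes. Higher calls made up 40.0% of members and 30.7% of all genes, and lower calls 16.5% and 31.4%. Complex IV had 10 of 15 members higher and 3 lower with a median of 0.37, complex I 14 of 40 higher and 4 lower, complex V 6 of 16 higher and 4 lower, complex III 3 of 10 higher and 2 lower, and complex II 1 of 4 each way. Without the 5 libraries rich in 4 genes 16 of the 34 higher calls were lost, and D3RA replicates 2 and 3, the shallowest libraries (4.37 and 3.55 M counts), are among those 5. In that run D3RA and D3DMSO hold 1 library each and are assumed to vary like the other groups. A call lost there cannot be told apart from a loss of power. What that enrichment contributes to the difference was not tested beyond this.

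The higher calls that held in every alternative run were Ndufa2, Ndufa4, Ndufa5, Ndufb2, Ndufb5, Ndufs1, Ndufs8 and Ndufv2 in complex I, Uqcr11 and Uqcrh in complex III, Cox6b1, Cox6c, Cox7a2l and Cox7b in complex IV, and Atp5j2 and Atp5mpl in complex V, 16 in all. Ndufa4 was first assigned to complex I and is now counted as a subunit of complex IV. It read 166, 162 and 148 CPM in D0, 200, 185 and 182 CPM in D3DMSO and 323, 273 and 324 CPM in D3RA, so every D3RA library lay above every other. Its treatment difference at day 3 was 0.70 (SE 0.08, adjusted p = 2.2e-06). Moving Ndufa4 and its relative Ndufa4l2 to complex IV gives 11 of 17 members of complex IV higher and 4 lower at day 3, and 13 of 38 higher and 3 lower in complex I.

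Cox6b1, the subunit that bridges the monomers of cytochrome c oxidase, did not pass the test between D0 and DMSO (0.04, adjusted p = 0.62), with 147, 156 and 146 CPM in D0 and 150, 155 and 155 CPM in D3DMSO. With RA it was 219, 228 and 241 CPM, a difference from D3DMSO of 0.58 (SE 0.06, adjusted p = 6.2e-07). The D3RA libraries stood clear of the others, which overlapped. Ndufb2, a small membrane-arm subunit of complex I, showed the same form, with 21.3, 20.1 and 17.0 CPM in D3DMSO and 30.6, 33.9 and 35.2 CPM in D3RA (0.77, SE 0.11, adjusted p = 1.4e-05). Atp5mpl had 79.5, 73.3 and 73.6 CPM in D3DMSO and 155, 117 and 133 CPM in D3RA (0.83, SE 0.10, adjusted p = 1.1e-06).

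Some of the higher calls did not hold in every alternative run. Cox4i1, the main isoform of subunit 4, differed by 0.37 (adjusted p = 0.0024) at day 3, but by an adjusted p of 0.508 without the 5 libraries rich in 4 genes and 0.0753 after quantile normalization. For Cox6a1 (0.29, adjusted p = 0.00099) the value without those libraries was an adjusted p of 0.0586, and for Cox8a (0.45, adjusted p = 0.00015) it was 0.0814. Ndufb9, an accessory subunit of complex I, was at the edge of the threshold (0.22, adjusted p = 0.049) and lost its call under 6 of the other settings and 4 of the left-out libraries.

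The lower calls at day 3 that held in every alternative run were Ndufa4l2, Ndufb10, Sdha, Cyc1, Uqcrc1, Cox4i2, Cox7a1, Atp5b and Atp5s, 9 of 14. Sdha differed by -0.41 (SE 0.07, adjusted p = 8.3e-05) and Atp5b by -0.43 (SE 0.08, adjusted p = 0.00018) between the treatments. Atp5s, which had risen with DMSO, was 5.01, 5.21 and 6.85 CPM in D3RA, below all D3DMSO libraries, a difference of -1.16 (SE 0.17, adjusted p = 1.5e-05).

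In the 4 pairs plotted, Cox4i1 and Cox4i2, Cox6b1 and Cox6b2, Cox7a2 and Cox7a1, and Ndufa4 and Ndufa4l2, the widely expressed form was higher with RA at day 3 or did not pass the test, and the other form was called lower, for Cox6b2 only with all libraries. Cox6c2, a near-identical copy of Cox6c whose reads may be shared with it, did not pass the test and was 0.50 above DMSO (adjusted p = 0.055). Cox4i2, an isoform known from lung and from cells low in oxygen, was 1.23, 1.89 and 2.08 CPM in D0, 3.04, 5.13 and 2.63 CPM in D3DMSO and 1.93, 2.10 and 1.27 CPM in D6DMSO. With RA it was 0.182, 0 and 0 CPM in D3RA and 0.132, 0.123 and 0.125 CPM in D6RA. These libraries lay below every library of the other groups. In D3RA replicates 2 and 3 a level of 3 counts would be 0.977 and 1.37 CPM. That is near the lowest D0 and D6DMSO libraries, so these 0 counts limit the level little. The D3RA group held 2 counts and the D3DMSO group 64, 28.0 times as high (95% counting interval 7.44 to 236). The test gave -4.12 (adjusted p = 9.9e-08) at day 3 and -3.60 (adjusted p = 3.4e-07) at day 6 between the treatments, where D6RA held 11 counts.

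Ndufa4l2, a relative of Ndufa4 known as a target of the hypoxia-inducible factor HIF-1, was highest in undifferentiated cells. It measured 8.72, 9.12 and 6.43 CPM in D0, 4.28, 4.52 and 3.41 CPM in D3DMSO and 0.182, 0 and 0 CPM in D3RA, in groups without overlap. D3RA held 2 counts against 211 in D0, a ratio of 64.2 (95% counting interval 17.6 to 534), and against 75 in D3DMSO, a ratio of 32.8 (8.77 to 276). At day 6 the treatments overlapped, with 0.614, 0.882 and 0.963 CPM in D6DMSO and 0.861, 1.02 and 0.689 CPM in D6RA, and differed by 0.06 (adjusted p = 0.87). The day 6 level with RA was 6.85 times that at day 3 (1.83 to 57.6). In D3RA replicates 2 and 3 a level of 3 counts would be 0.977 and 1.37 CPM, near or above the D6RA values. Those libraries could hardly show the D6RA level, and the 2 counts of D3RA lay in replicate 1. The libraries of day 3 and day 6 also differ in depth and mitochondrial counts. The intervals cover counting error only.

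Cox7a1, the isoform of heart and skeletal muscle, was 2.97, 2.99 and 3.03 CPM in D0, 2.07, 1.85 and 1.55 CPM in D3DMSO and 0.364, 0.651 and 0.914 CPM in D3RA. In D3RA replicates 2 and 3 these values are under 3 counts, which would be 0.977 and 1.37 CPM. The treatments did not overlap at day 3 (-1.38, SE 0.41, adjusted p = 0.0073). At day 6 they did, with 0.702, 1.09 and 0.70 CPM in D6DMSO and 1.03, 0.41 and 0.845 CPM in D6RA (-0.20, adjusted p = 0.69), although D6DMSO held the highest sum of cardiac and striated muscle markers. Its partner Cox7a2 rose from D0 on both routes and did not differ between the treatments by the test (0.11, SE 0.12, adjusted p = 0.44, at day 3).

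Cox6b2, an isoform known from testis, rose with DMSO to 6.63, 7.39 and 6.04 CPM from 2.46, 2.67 and 2.74 CPM in D0. In D3RA it was 3.83 CPM in replicate 1 and 0.977 and 0.914 CPM in replicates 2 and 3, so replicate 1 lay above all D0 libraries and the others below them. The treatment difference at day 3 was -1.98 (adjusted p = 0.00018), and the adjusted p was 0.081 without the 5 libraries rich in 4 genes, which include replicates 2 and 3. The testis and germ line markers of the fixed list were not in the table, so that cell type was not examined.

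**Figure D3:**
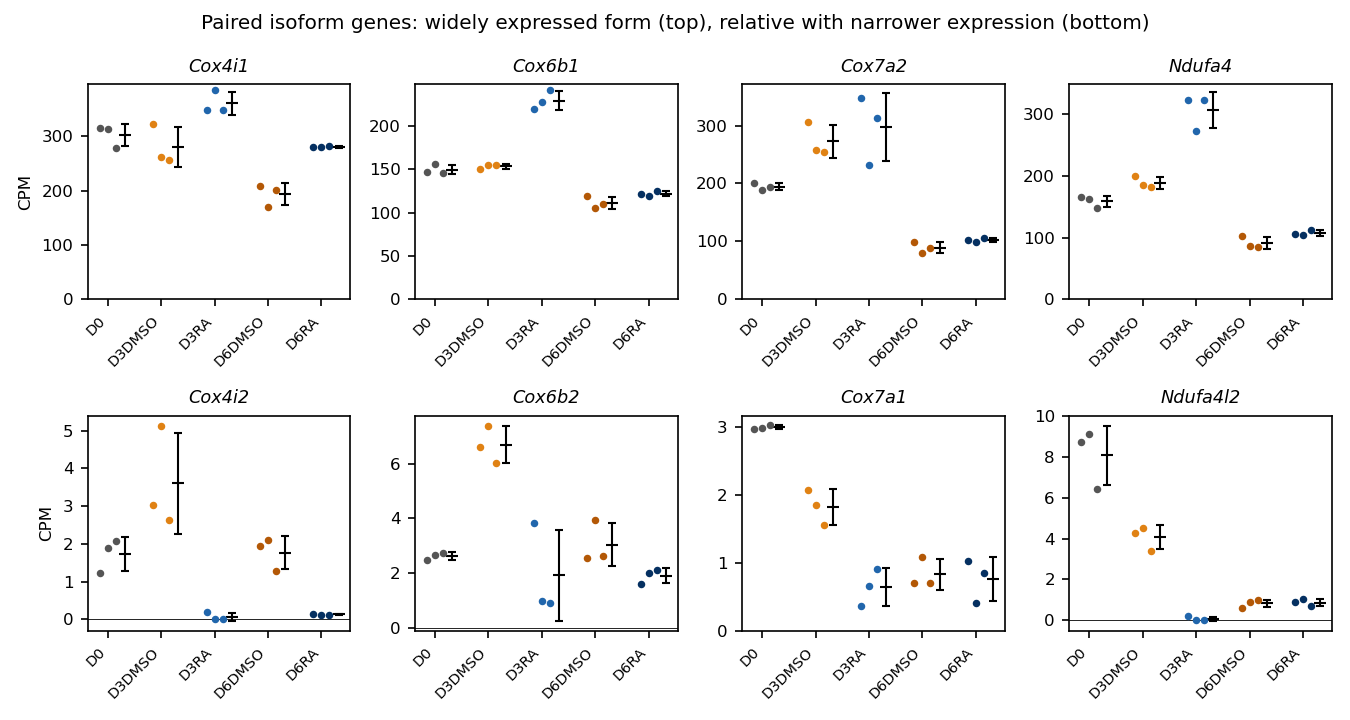
Each panel shows CPM in the 3 libraries of each group as points, with the mean and SD as a bar beside them; axes start at or below 0. For Cox7a2 the libraries of D3RA and D3DMSO overlap. All upper genes have their highest mean in D3RA. Of the lower genes, Cox4i2, Cox7a1 and Ndufa4l2 have their lowest mean there, with 0 counts in D3RA replicates 2 and 3 for Cox4i2 and Ndufa4l2. Cox6b2 does not, and its D3RA libraries lie on both sides of those of D0.

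At day 6 a smaller share of these genes than of all genes separated the treatments. In D6RA 19 members were higher than in D6DMSO and 15 lower, 40.0% of members beside 65.8% of all genes. Higher calls were 22.4% of members and 32.6% of all genes, and lower calls 17.6% and 33.1%. The median difference was 0.03 for members and -0.02 for all genes. Quantile normalization gave 10 higher and 24 lower, and without D6DMSO replicate 2 the higher calls were 9. Complex I split into 8 higher and 6 lower of 40, complex II 1 and 2 of 4, complex III 1 and 2 of 10, complex IV 4 and 2 of 15, and complex V 5 and 3 of 16. The 9 higher calls that held in every alternative run were Ndufb2, Ndufs8, Sdhc, Cox4i1, Cox5a, Cox6a1, Cox7a2l, Atp5k and Atp5mpl.

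Cox4i1 was 209, 170 and 201 CPM in D6DMSO and 280, 280 and 283 CPM in D6RA, without overlap (0.54, SE 0.09, adjusted p = 6e-05). Cox6a1, a subunit of the same complex, was 88.4, 92.3 and 92.0 CPM against 123, 119 and 124 CPM (0.43, SE 0.06, adjusted p = 1.8e-05). Atp5k, the e subunit that helps ATP synthase form dimers, was 43.8, 28.8 and 38.3 CPM against 59.5, 56.7 and 56.7 CPM (0.66, SE 0.12, adjusted p = 0.00017). In all 3 genes every RA library lay above every DMSO library. Ndufs8, an iron-sulfur subunit of complex I, was 34.7, 34.4 and 35.8 CPM with DMSO and 48.7, 51.0 and 50.6 CPM with RA (0.52, SE 0.08, adjusted p = 3.6e-05).

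The lower calls at day 6 included Sdha and Atp5s again. Sdha was 195, 203 and 194 CPM in D6DMSO, near its D0 level, and 146, 147 and 138 CPM in D6RA, a difference of -0.46 (SE 0.07, adjusted p = 2.1e-05). Atp5s was 10.2, 10.7 and 9.67 CPM with DMSO and 4.53, 3.93 and 4.29 CPM with RA (-1.26, SE 0.17, adjusted p = 4.8e-06). Atp5b was 1020, 930 and 1010 CPM with DMSO and 722, 702 and 728 CPM with RA (-0.46, adjusted p = 7.4e-05). No library of a treatment overlapped the other in these 3 genes, and 12 of the 15 lower calls held in every alternative run. In complex I Ndufs7, an iron-sulfur subunit next to the quinone site, was lower by 0.55 on the log2 scale (adjusted p = 0.00022), and in complex III Uqcrq by 0.46 (adjusted p = 0.0046).

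Set side by side, 16 members were higher with RA on both days: Ndufa1, Ndufa2, Ndufa4, Ndufb2, Ndufb5, Ndufb9, Ndufs8, Uqcrh, Cox4i1, Cox5a, Cox6a1, Cox7a2l, Atp5j, Atp5j2, Atp5k and Atp5mpl. Another 5 were lower on both days, Sdha, Cox4i2, Atp5b, Atp5d and Atp5s, and 27 passed the test on neither day. Of all genes 30.7% were higher with RA at day 3 and 32.6% at day 6, and 31.4% and 33.1% were lower. The share of all genes called alike on both days was not counted, so these lists are not set apart from other genes. The calls of both days held in every alternative run for Ndufb2, Ndufs8, Cox7a2l and Atp5mpl among the 16, and for Sdha, Cox4i2, Atp5b and Atp5s among the 5. These members were listed after their values were seen. Over the 85 members Pearson's r between the day 3 and day 6 differences was 0.64 and Spearman's rho 0.56, against 0.63 and 0.54 over all 14717 genes. Over the 80 members at 5 CPM or more in their highest group r was 0.38 and rho 0.53. These correlations are across genes, which share the libraries and are not independent replicates.

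**Figure D4:**
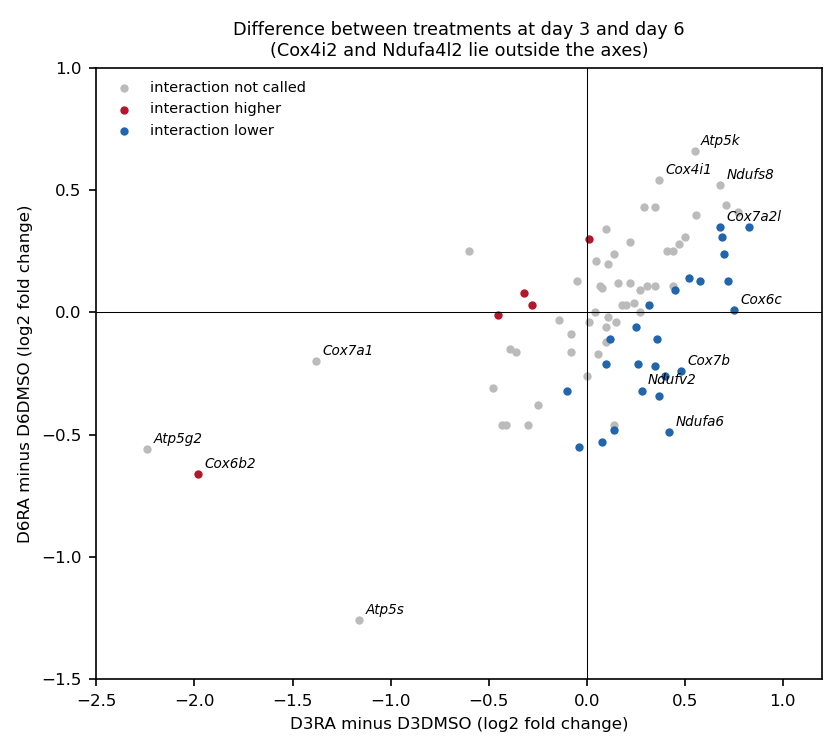
Each point is 1 member, with the RA minus DMSO log2 difference at day 3 on the horizontal axis and at day 6 on the vertical axis, coloured by whether the change between the days passed the test. Most coloured points are blue and lie right of 0 on the horizontal axis, with Ndufa6, Ndufv2 and Cox7b higher at day 3 and lower at day 6.

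The change of the treatment difference from day 3 to day 6 was itself tested as an interaction. It was lower for 25 members and higher for 6, a called share of 36.5% against 48.5% of all genes, with lower calls at 29.4% of members and 23.1% of all genes. The median was -0.16 for members and 0.04 for all genes. In the interaction 14 of the 25 lower calls held in every alternative run, Ndufa4, Ndufa5, Ndufa6, Ndufs1, Ndufs7, Ndufv2, Uqcrb, Cox5b, Cox6b1, Cox6c, Cox7a2l, Cox7b, Atp5g1 and Atp5mpl, and 1 of the 6 higher ones, Ndufa4l2.

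The direction turned for 3 members, Ndufa6, Ndufv2 and Cox7b, higher with RA at day 3 and lower at day 6. Ndufa6, an accessory subunit of complex I of the LYR family, was 113, 92.0 and 91.4 CPM in D3DMSO against 136, 135 and 125 CPM in D3RA, then 89.0, 77.1 and 83.4 CPM in D6DMSO against 58.5, 58.8 and 60.4 CPM in D6RA. Its treatment difference went from 0.42 to -0.49, an interaction of -0.91 (SE 0.12, adjusted p = 7.3e-06), although the day 3 call was at an adjusted p of 0.0533 without the 5 libraries rich in 4 genes. Ndufv2, an iron-sulfur subunit of the NADH-oxidising arm, went from 0.28 to -0.32 (interaction -0.60, SE 0.10, adjusted p = 8.1e-05). Cox7b went from 0.48 to -0.24 (interaction -0.72, adjusted p = 0.00011), with its day 6 call lost without D6DMSO replicate 1 (adjusted p = 0.132) or without D6RA replicate 2. The libraries of the treatments did not overlap in these 3 genes on either day.

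From day 3 to day 6 most members fell on both routes. With DMSO 67 of the 85 fell and 1 rose, 80.0% called against 56.4% of all genes, of which 28.3% rose, and lower calls were 78.8% of members against 28.1% of all genes. With RA 69 fell and 3 rose, 84.7% called against 69.3%, and lower calls were 81.2% against 32.0%. The median member difference was -0.54 with DMSO and -0.65 with RA, and that of all genes 0.01 and 0.07. All 5 complexes took part: the lower share by complex ran from 60.0% of complex III to 93.3% of complex IV with DMSO and from 70.0% of complex III to 87.5% of complex V with RA. Of the falls, 60 of 67 and 65 of 69 held in every alternative run.

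Cox7a2 had the largest fall with DMSO among the members above 1 CPM at all times, from 306, 257 and 255 CPM in D3DMSO to 99.3, 79.3 and 88.7 CPM in D6DMSO (-1.62, SE 0.12, adjusted p = 1.2e-08). With RA it went from 348, 232 and 313 CPM to 102, 98.4 and 105 CPM (-1.53, SE 0.12, adjusted p = 1.2e-08). Neither pair of groups overlapped. Atp5mpl fell by 1.15 (adjusted p = 4.9e-08) and 1.63 (adjusted p = 4.6e-10) on the log2 scale, and Ndufa4 by 1.06 (adjusted p = 3.4e-08) and 1.51 (adjusted p = 2.9e-10). In complex III Uqcrb, an accessory subunit, fell by 1.45 with RA (adjusted p = 3.6e-08) and Uqcr10 by 0.99 with DMSO (adjusted p = 4.8e-06).

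For some members a lower call was missing with DMSO, with RA or with both. Sdha was -0.02 (adjusted p = 0.8) with DMSO and -0.07 (adjusted p = 0.38) with RA. Under quantile normalization Sdha was called lower with RA (adjusted p = 0.0231). Cycs, the electron carrier cytochrome c, was -0.20 (adjusted p = 0.25) with DMSO. With RA Cycs was called lower (-0.39, adjusted p = 0.0217), a call lost without the 5 libraries rich in 4 genes, with the compared groups alone and without D3RA or D6RA replicate 3. Uqcrc1 was -0.22 (adjusted p = 0.085) and 0.02 (adjusted p = 0.87). The single rise with DMSO, Ndufab1 (0.28, adjusted p = 0.0499), was lost in 10 of the alternatives. Of the 3 rises with RA only that of Ndufa4l2, which had 2 counts in D3RA, held throughout. Those of Cyc1 (0.28, adjusted p = 0.046) and Atp5g2 (1.62, adjusted p = 0.015) did not.

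The days differ in more than time. Day 6 libraries hold 38.24 to 49.64 M counts with 41.6% to 55.8% from mitochondrial genes, and all day 3 libraries hold fewer counts and none from those genes, so how the libraries of each day were made and the day itself cannot be told apart in these falls. Other large gene groups moved with them. The cytosolic ribosomal protein genes fell from day 3 to day 6 in 48 of 83 with DMSO and 76 of 83 with RA (medians -0.34 and -0.94), and the mitochondrial ribosomal protein genes in 48 of 75 and 59 of 75 (medians -0.34 and -0.63). Over all genes 28.1% fell with DMSO and 32.0% with RA. The part of depth or of the mitochondrial counts in the result was not tested.

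Other gene lists at day 3 moved in various ways. The cytosolic ribosomal protein genes leaned higher with RA, as the respiratory chain did, with 40 of 83 higher and 15 lower than in D0 (median 0.28) and 39 higher and 15 lower than with DMSO (median 0.25). The mitochondrial ribosomal protein genes were 23 higher and 15 lower of 75 against DMSO (median 0.10). From D0 to D3RA 11 of 44 assembly factors rose and 18 fell (median -0.15), 11 of 75 mitochondrial ribosomal protein genes rose and 39 fell (median -0.26), and 6 of 19 genes of the tricarboxylic acid cycle moved each way. Of all genes 35.0% were higher and 33.9% lower in D3RA than in D0. Against D3DMSO 30.7% of all genes were higher in D3RA and 31.4% lower. Nubpl, which delivers iron-sulfur clusters to complex I, went from 22.5 ± 2.01 CPM in D0 to 8.98 ± 1.50 CPM in D3RA (SD, n = 3), a log2 difference of -1.31 in limma (adjusted p = 2.42e-07). Cox14, an assembly factor of complex IV, went from 14.5 ± 0.63 to 35.8 ± 1.42 CPM (1.30, limma adjusted p = 3.52e-09). Idh2, the NADP-dependent isocitrate dehydrogenase of mitochondria, rose from 135 ± 10.7 to 320 ± 23.8 CPM (1.25, limma adjusted p = 3.21e-10), while Ogdh, of the 2-oxoglutarate dehydrogenase complex, fell by 1.24 in log2 units (limma adjusted p = 4.91e-10).

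Glycolysis and lactate genes mostly fell on both routes: 16 of 25 fell from D0 to D3DMSO (median -0.51) and 21 of 25 to D3RA (median -1.50), and at day 6 19 of 25 were lower with RA than with DMSO (median -1.17). Of all genes 27.8%, 33.9% and 33.1% were called lower in these comparisons, in that order. Slc2a3, a high-affinity glucose transporter, averaged 1480 CPM in D0, 918 in D3DMSO, 71.8 in D3RA, 509 in D6DMSO and 14.7 in D6RA, a difference between the treatments of -5.12 at day 6 (adjusted p = 3.45e-16). Slc16a3, which exports lactate, fell by 4.81 in log2 units from D0 to D3RA (limma adjusted p = 6.78e-12). The TCA cycle genes were lower with RA at day 6 in 12 of 19 and higher in 3, and the cytosolic ribosomal protein genes were lower in 56 of 83 and higher in 0, and 19 respiratory chain members were higher and 15 lower, counts that became 10 and 24 after quantile normalization. Carriers and porins were 8 higher and 6 lower of 16 in that comparison. Among all genes 32.6% were higher and 33.1% lower with RA at day 6.

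**Figure D5:**
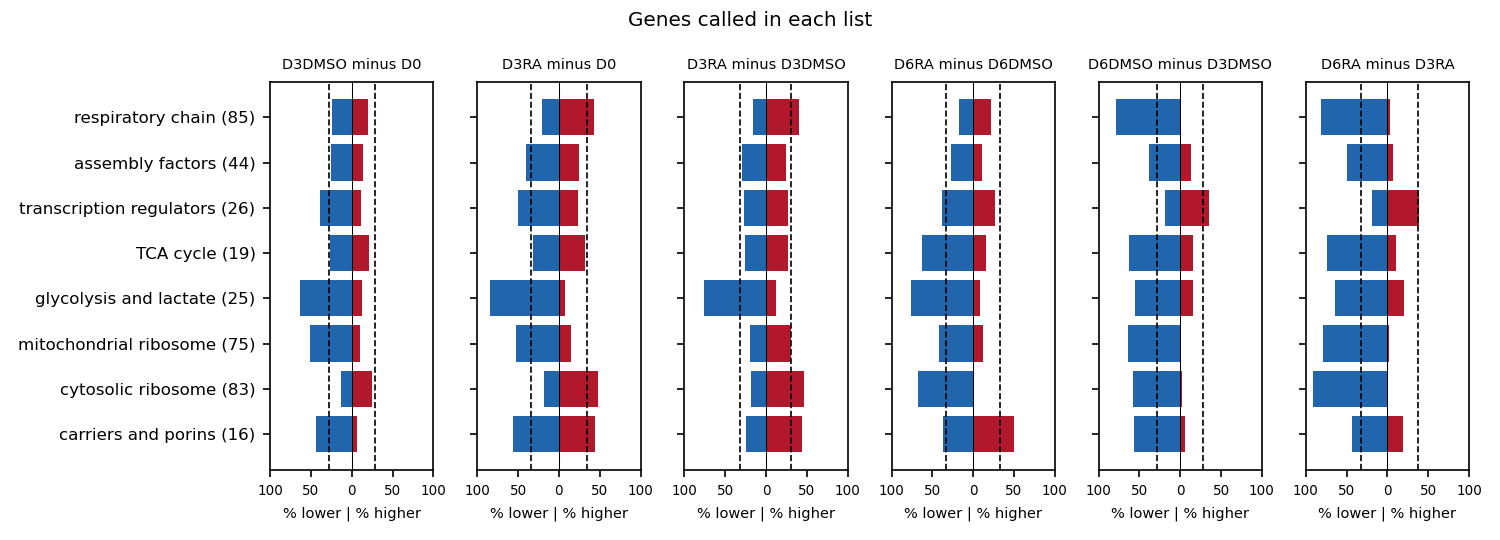
Bars give the percent of each list called lower (left, blue) and higher (right, red) in 6 comparisons, with the number of genes measured in brackets and dashed lines at the percent of all 14717 genes. The respiratory chain bar passes the dashed line on the right in both D3RA panels and passes it far to the left in both day 6 minus day 3 panels.

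Among the transcription regulators of mitochondrial genes, Ppargc1a, the coactivator PGC-1 alpha, was 0.457 ± 0.298 CPM in D0, 0.303 ± 0.271 in D3DMSO, 1.72 ± 0.306 in D3RA, 1.79 ± 0.278 in D6DMSO and 15.9 ± 1.26 in D6RA (SD, n = 3). It was higher with RA by 3.15 at day 6 (limma adjusted p = 1.16e-05) and rose by 3.11 from D3RA to D6RA (limma adjusted p = 1.46e-05). Its relation to the levels of the members was not tested. Esrrg, an estrogen-related receptor that binds with Ppargc1a, rose by 2.93 from D0 to D3RA (adjusted p = 0.000277). Tfam, the packaging and transcription factor of mitochondrial DNA, fell by 0.58 from D3DMSO to D6DMSO (adjusted p = 7.67e-06). Over the list, 7 of 26 regulators were higher and 10 lower with RA at day 6 (median 0.03). The shares of all genes were 32.6% higher and 33.1% lower.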

How the data were processed

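The deposited table gave log2 values per gene for 15 RNA libraries; on testing they equal log2(count + 0.5) plus a constant for each library, and the counts recovered from them were whole numbers within 0.05 for 100% of values. Per the submitters' processing notes the tools named were Trimmomatic 0.32, FastQC 0.11.2, Bowtie2 2.2.9, STAR 2.6.0c, SAMtools 0.1.19, featureCounts, edgeR and limma, with build mm9; their order, and whether counting used strand, are not given in the sources used here. The other 18 samples of the series, of chromatin immunoprecipitation, were not analysed here. Symbols were matched to 14228 of 14717 gene IDs. Limma 3.58.1 in R 4.3.3 (eBayes with trend, 5 group means, 10 residual degrees of freedom) tested the log2 values of all genes, with Benjamini-Hochberg adjustment over all of them. Counts served for levels in CPM only. The limma code was first run on simulated counts with known folds. That simulation gave every gene the same dispersion and no library an enrichment of 4 genes, so it does not describe these libraries. The rule for naming members took a fixed panel of isoforms, complex II, Cycs and Cyc1. Per comparison and complex it added the called members at 1 CPM or more with the highest and lowest differences. For other pathways it took the called gene at each end of a list. Further members, such as Atp5b, Uqcrc1 with RA and Ndufv2 in the interaction, were described outside this rule with their values known. The members and lists were chosen with earlier results of these data known. Alternatives were quantile normalization, median-of-ratios scaling, a pseudocount of 2, a filter of 5 CPM in 3 libraries, no trend, voom weights, the compared groups alone, the replicate block and each library left out. Leaving out the 5 libraries rich in 4 genes, and fitting the 9 D0 and day 3 libraries alone, were added after seeing the data. Replicate numbers were not used to pair the libraries. Of 30 pairs of libraries with the same number, 5 had deviations correlated over 0.1 (range -0.19 to 0.27). These 5 all lay between D0, D3DMSO and D3RA, where every same-number correlation was positive, so a weak pairing of those groups was not excluded. Promoter windows came from RefSeq, GRCm38.p6. Python 3.11.15 was used for the rest.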

Additional observations from a re-analysis of the deposited data

Results flagged for a closer look

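The RA minus DMSO difference at day 6 less that at day 3 is given in log2 units. Listed are the members named by the rule that passed the limma interaction test, and Ndufv2. In complex I it was -0.91 for Ndufa6, -0.60 for Ndufv2, -0.45 for Ndufa4, -0.29 for Ndufa3, 0.31 for Ndufv3 and 4.40 for Ndufa4l2. In complex II it was -0.31 for Sdhd and 0.29 for Sdhc. In complex III it was -0.66 for Uqcrb, -0.23 for Uqcrc2 and 0.44 for Cyc1. In complex IV it was -0.74 for Cox6c, -0.72 for Cox7b, -0.45 for Cox6b1, -0.36 for Cox8a, -0.33 for Cox7a2l and 1.32 for Cox6b2. In complex V it was -0.71 for Atp5g1 and -0.24 for Atp5c1. The calls of Ndufa3, Ndufv3, Sdhc, Sdhd, Uqcrc2, Cyc1, Cox8a, Cox6b2 and Atp5c1 were lost under at least 1 alternative.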

How the results depend on the processing

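Values under the alternatives were counted over the members named by the rule. Of these values 2965 kept direction and side of the threshold, 259 lost the call, 41 gained one and 3 turned. The 3 were without the 5 libraries rich in 4 genes: Atp5g2 0.09 for D3RA minus D0 and -0.09 for D6RA minus D3RA, and Cox6b2 -1.03 for D6RA minus D3RA. Leaving out these libraries also gave 10 members lower for D3DMSO minus D0, 19 higher for D3RA minus D3DMSO, 1 higher for D6RA minus D3RA and 14 lower for the interaction, with fewer libraries in the fit. Quantile normalization gave 10 higher and 24 lower for D6RA minus D6DMSO, 0 higher for D6DMSO minus D3DMSO and 3 higher for the interaction. The compared groups alone gave 0 higher for D6DMSO minus D3DMSO and 2 higher for the interaction, median-of-ratios scaling gave 0 higher for D6DMSO minus D3DMSO, and no trend gave 2 higher for the interaction; the cause was not tested. Leaving out each library gave 15 to 19 higher and 15 to 28 lower for D3DMSO minus D0, 30 to 35 and 16 to 20 for D3RA minus D0, 31 to 44 and 13 to 16 for D3RA minus D3DMSO, 9 to 20 and 12 to 18 for D6RA minus D6DMSO (9 higher without D6DMSO replicate 2), 0 to 2 and 62 to 70 for D6DMSO minus D3DMSO, 1 to 4 and 66 to 69 for D6RA minus D3RA (1 higher without D3RA replicate 2 or 3), and 1 to 7 and 18 to 30 for the interaction. With the replicate block 20 members were higher and 22 lower for D3DMSO minus D0 and 36 and 15 for D3RA minus D3DMSO, though whether the numbers pair the libraries is not known. The 4.37 and 3.55 M counts of D3RA replicates 2 and 3 limit values under about 1 CPM.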
